A study of Mus musculus with 4 samples.

Results

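The 10 genes described here encode the CXCR2 and CXCR4 recruitment axis of neutrophils in the mouse. They were taken by symbol from the deposited count table (Cxcl1, Cxcl2, Cxcl3, Cxcl5 and Ppbp as ligands, Cxcr1 and Cxcr2 as their receptors, Cxcr4, Cxcl12 and Ackr3 as the CXCR4 arm), and all 10 were found among the 54532 genes of the table. The list rests on the known roles of the genes and not on a threshold of any measured value, although earlier results of these data were known when it was made. Messenger RNA was sequenced from CD11b+Ly6g+ MDSCs (myeloid-derived suppressor cells of the granulocytic kind), which were sorted from the lungs of mice with a melanoma-induced pre-metastatic niche (PMN), to ask what the treatments did to the cells recruited to the lung. Each of the 4 groups gave 1 library, made from pooled lungs of 10 to 12 mice, so no difference below has a replicate check and none is tested between conditions.

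All mice, the control (Ctrl) animals included, were male C57BL/6 mice of 6 to 8 weeks that received MCM, medium in which B16F10 melanoma cells had grown, into the peritoneum at 300 μl per mouse for 10 days. B16F10 cells were injected intravenously on day 7, and lungs were taken on day 10. The Ctrl mice received no peptide, and no library of healthy lung was used here. The peptide groups received TP5, sFD17 or FR17 under the skin at the same dose of 40 μM/kg every day starting on day 3. TP5 is thymopentin, a short immunomodulatory peptide. FR17 is a branched peptide that carries TP5 and is cut by the protease MMP2 to release a self-assembling monomer, and sFD17 releases the same monomer but carries the TP5 residues in scrambled order.

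CXCR2 is the main chemokine receptor of circulating neutrophils. It is bound by the CXC chemokines with a Glu-Leu-Arg motif, here CXCL1, CXCL2, CXCL3, CXCL5 and the processed form of PPBP, and it drives the release of neutrophils from bone marrow and their entry into inflamed lung. CXCR4 opposes it: its ligand CXCL12, made mainly by stromal cells, holds neutrophils in the marrow, and CXCR4 comes up again on aged neutrophils. ACKR3 is an atypical receptor that binds and removes CXCL12 without signalling through G proteins. Neutrophils are also a source of CXCL2, so receptor and ligand can both be read in the sorted cells.

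All 5 ligand genes lie on the plus strand of 1 stretch of chromosome 5 in GRCm38. Their order is Cxcl5 (ENSMUSG00000029371, chr5:90759360-90761624), Ppbp (ENSMUSG00000029372, chr5:90768518-90770063), Cxcl3 (ENSMUSG00000029379, chr5:90786103-90789600), Cxcl1 (ENSMUSG00000029380, chr5:90891241-90893115) and Cxcl2 (ENSMUSG00000058427, chr5:90903871-90905938). Promoter sequences from RefSeq (GRCm38.p6) were matched by symbol for 9 of the 10 genes, all but Cxcl5. Patterns for 5 kinds of site were searched on both strands of the 250 bases before each start site. The pattern GGNNTTTCC, in which N is any base, stands here for sites of the NF-κB family. It was found 2 times each before Cxcl1 and Cxcl2, 1 time before Cxcl3, and 0 times before Ppbp, Cxcr1, Cxcr2, Cxcr4, Cxcl12 and Ackr3. Of 32851 mouse promoters of this length, 4.93% hold it. ACGTG, the core of hypoxia-inducible factor sites (in 16.6% of all promoters), was found 1 time before Cxcl1 and 2 times, overlapping, before Cxcl3. The TATA box letters TATAAA (12.4%) were found 2 times before Ppbp, 2 times, overlapping, before Cxcr4, and 1 time each before Cxcl3 and Ackr3. TGANTCA, for AP-1 (6.75%), was found 1 time, before Ppbp, and TTNNGCAA, for C/EBP (9.56%), 1 time, before Ackr3. These 4 patterns had no match before the other genes, and none of their matches overlapped one of GGNNTTTCC. A match is a run of letters and no shown binding site. The windows below run from 130 to 31 bases before the RefSeq start of the 3 matching genes and, for contrast, of Ppbp. They are shown because Ppbp differed in direction from the other 3 in FR17, and matches are in capitals. The pattern and the contrast were chosen after values were seen. Cxcr1, Cxcr2 and Cxcr4, also without a match, had log2 ratios of FR17 to Ctrl of −1.15, −0.88 and −0.49. Cxcl12 and Ackr3, without one too, were at 0.09 and 0.25. A link between the pattern and the levels was not tested.
Cxcl1, chr5:90891115-90891214, plus strand: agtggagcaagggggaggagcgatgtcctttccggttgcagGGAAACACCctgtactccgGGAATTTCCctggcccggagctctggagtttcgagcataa
Cxcl2, chr5:90903769-90903868, plus strand: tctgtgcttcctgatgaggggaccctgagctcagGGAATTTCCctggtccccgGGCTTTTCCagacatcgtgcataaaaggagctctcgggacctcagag
Cxcl3, chr5:90785971-90786070, plus strand: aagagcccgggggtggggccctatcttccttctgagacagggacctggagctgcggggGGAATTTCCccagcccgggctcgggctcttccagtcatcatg
Ppbp, chr5:90768388-90768487, plus strand: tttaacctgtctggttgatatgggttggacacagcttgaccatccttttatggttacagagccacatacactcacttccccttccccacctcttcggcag
The run GGAATTTCC begins 70 bases before the RefSeq start of Cxcl1, 96 before that of Cxcl2 and 72 before that of Cxcl3. The RefSeq start of Cxcl2 (90903899) lies downstream of the gene start printed above (90903871). Its larger distance therefore depends on the annotation used.

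The libraries held 15543071 to 19638228 counts. Counts were scaled between libraries by edgeR's TMM method and are given as CPM, counts relative to a common library total, and levels of different genes are ranked as RPKM, which also divides by the length of the gene's exons. Shares and ratios of counts are compared between libraries and not read as levels between genes. A gene without counts could still have had 0.131 to 0.227 CPM, the value of 3 counts. Of all genes, 16369 had at least 10 counts in at least 1 library, and 9 of the 10 axis genes were among them. A gene was called different between a pair of libraries when their CPM differed at least 2-fold, and the intervals given are 95% intervals of the counts, which cover counting error only. The genes of the sorting gate were present throughout: Itgam, which encodes CD11b, had 5711 to 6924 counts, and Ly6g had 1234 to 2081. Because the samples are bulk RNA, fewer cells of a type and less RNA per cell cannot be told apart.

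Cxcl2 was by far the most abundant message of the axis per length, at 4360 RPKM in Ctrl, 3335 in TP5, 5236 in sFD17 and 2132 in FR17. Its share of the counts on the 5 ligands was 96.0%, 97.0%, 97.5% and 95.2%. It encodes MIP-2, a CXCR2 ligand that neutrophils themselves secrete. Its level per length was rank 6 of 16369 genes in Ctrl, 10 in TP5, 5 in sFD17 and 16 in FR17. Next in the order per length in Ctrl stood Cxcr4 at 368 RPKM, Cxcr2 at 275, Cxcl1 at 133, Cxcl3 at 34.8 and Cxcr1 at 11.1. At the low end in Ctrl were Ackr3 at 2.71 RPKM, Cxcl12 at 1.38 (1.19 to 1.59) and Ppbp at 0.765 (0.418 to 1.28), and the intervals of the last pair overlapped. The order from Cxcl2 down to Cxcr1 was the same in all 4 libraries, although in FR17 the interval of Cxcr1 (4.28 to 5.80 RPKM) overlapped that of Ppbp (3.67 to 5.38).

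**Figure D1:**
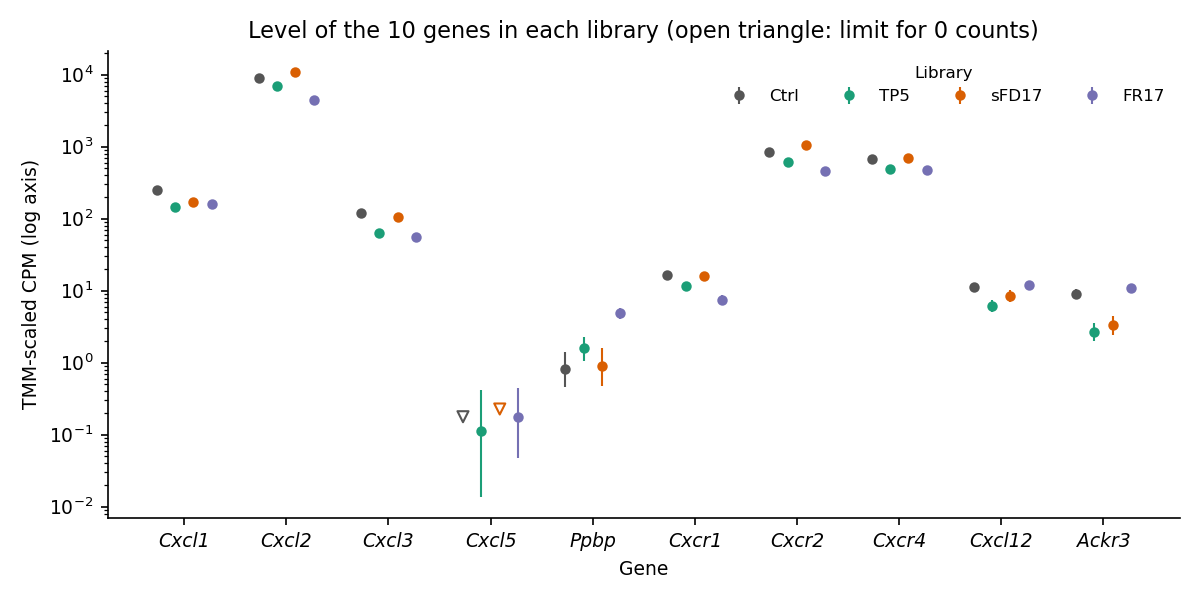
TMM-scaled CPM (log axis) of the 10 genes in each of the 4 libraries, with bars for the 95% Poisson interval of the count and open triangles for the limit that 0 counts allow. Cxcl2 sits between 4409 and 10829 CPM, Cxcr2 and Cxcr4 between 454 and 1052 CPM, and the counted values of Cxcl5 at or below 0.174 CPM. Its triangles for 0 counts lie at 0.178 CPM in Ctrl and 0.227 CPM in sFD17.

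Cxcl2 had 9017 CPM in Ctrl, 6897 in TP5, 10829 in sFD17 and 4409 in FR17. Lowest was the FR17 library and highest the sFD17 library. FR17 stood 2.04-fold below Ctrl (log2 ratio −1.03, interval −1.04 to −1.02) and 2.46-fold below sFD17 (−1.30, −1.31 to −1.28), both past the 2-fold call, while sFD17 stood slightly above Ctrl (0.26, turning to −0.13 with a scaling on neutrophil markers described below) and TP5 below it (−0.39). These 101222 to 152311 counts leave almost no counting error. What limits the value is the scaling between libraries, on which both calls depended as given below, and how far separate pools of mice would differ.

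Cxcl1, which encodes KC, a CXCR2 ligand made by many stromal and myeloid cells, had 249 CPM in Ctrl, 146 in TP5, 169 in sFD17 and 161 in FR17. It was lower in all 3 peptide libraries than in Ctrl, by 1.71-fold, 1.47-fold and 1.55-fold, and none of these passed the call. The 3 peptide libraries lay close together, unlike those of Cxcl2, and within a library the ratio of Cxcl1 to Cxcl2 counts was 0.0276 in Ctrl, 0.0211 in TP5, 0.0156 in sFD17 and 0.0364 in FR17. This ratio needs no scaling between libraries, and its intervals did not overlap between any pair of them.

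Cxcl3 encodes a close relative of CXCL2 and had 122 CPM in Ctrl, 63.6 in TP5, 105 in sFD17 and 56.3 in FR17. TP5 and FR17 were the low libraries. FR17 stood 2.16-fold below Ctrl (−1.11, −1.21 to −1.01), past the call, and TP5 1.91-fold below it (−0.94, −1.04 to −0.83), just short of it. In the annotated transcripts, 126 of the 2159 windows of 50 bases in Cxcl2 (5.84%) also occur in Cxcl3, and whether reads were split between the pair was not tested. Cxcl1 shares no such window with another gene.

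Cxcl5, a ligand made in lung mainly by epithelium, was at the floor: 0 counts in Ctrl, 2 in TP5, 0 in sFD17 and 4 in FR17. A count of 0 allows up to 0.178 CPM in Ctrl and 0.227 CPM in sFD17, and a difference was not detectable at this depth. Ppbp, whose product is stored in platelet granules and processed to the CXCR2 ligand NAP-2, was sparse too, with 14 counts in Ctrl, 28 in TP5, 12 in sFD17 and 111 in FR17. Its highest library was FR17 at 4.84 CPM, against 0.829 in Ctrl, 1.60 in TP5 and 0.909 in sFD17. FR17 was therefore 5.83-fold above Ctrl (2.54, 1.74 to 3.46), 5.32-fold above sFD17 (2.41, 1.55 to 3.41) and 3.03-fold above TP5 (1.60, 0.99 to 2.25).

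Ppbp lies between Cxcl5 and Pf4, which encodes the other main platelet chemokine and is also read in macrophages. Pf4 had 1733 counts in Ctrl, 653 in TP5, 247 in sFD17 and 2954 in FR17, with log2 ratios to Ctrl of −1.46, −2.45 and 0.33. The ratio of Ppbp to Pf4 counts was 0.00808 in Ctrl and 0.0376 to 0.0486 in the peptide libraries. Cxcl15, the lung epithelial chemokine that lies between Cxcl3 and Cxcl1, had 74 to 117 counts and log2 ratios of −0.13, 0.24 and 0.11. In FR17, Ppbp therefore stood above Ctrl and Cxcl3, Cxcl1 and Cxcl2 below it, under each scaling tried.

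**Figure D2:**
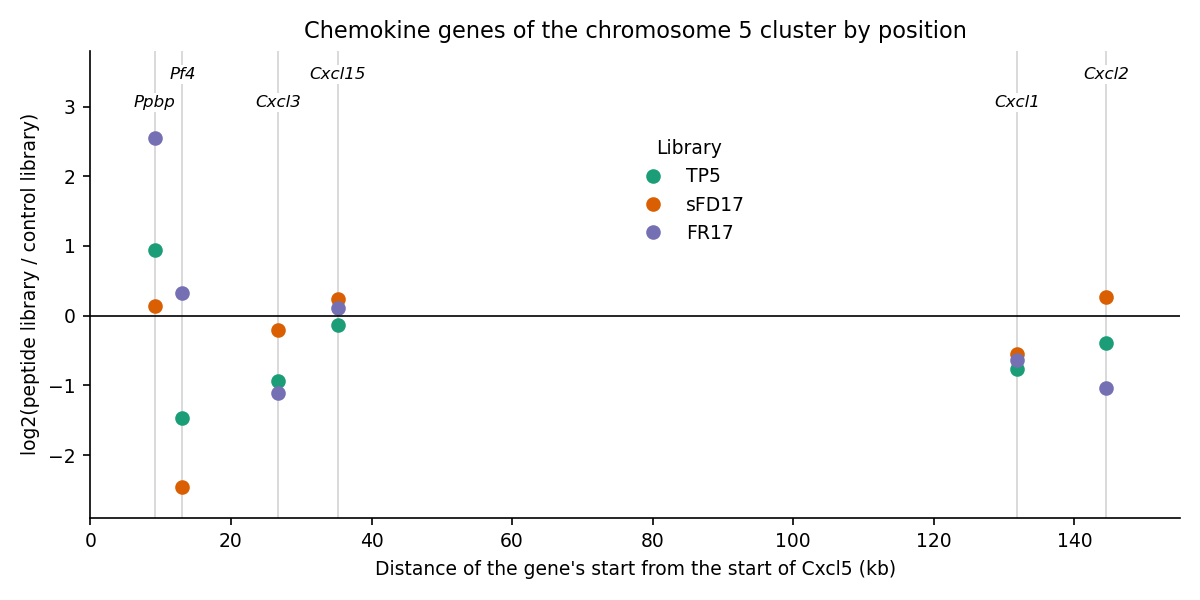
Log2 ratio of each peptide library to the control library for the chemokine genes of the chromosome 5 cluster, placed by the distance of their start from that of Cxcl5 in kb. Ppbp at 9.16 kb is highest in FR17 (2.54) and Pf4 at 13.1 kb is lowest in sFD17 (−2.45). Cxcl1 at 132 kb and Cxcl2 at 145 kb differ in spread with the TMM scaling shown.

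Cxcr2 (ENSMUSG00000026180, chr1:74153989-74161246, plus strand) had 839 CPM in Ctrl, 610 in TP5, 1052 in sFD17 and 454 in FR17. With TMM scaling this is the same order of libraries as for Cxcl2. FR17 stood 2.31-fold below sFD17 (−1.21, −1.25 to −1.17), past the call, and 1.85-fold below Ctrl (−0.88, −0.92 to −0.85), short of it. The ratio of Cxcl2 to Cxcr2 counts within a library was 10.8 in Ctrl, 11.3 in TP5, 10.3 in sFD17 and 9.70 in FR17, a range far narrower than that of either gene alone. Of the 3039 windows of 50 bases in Cxcr2, 6.68% also occur in transcripts of other genes.

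Cxcr1 (ENSMUSG00000048480, chr1:74191785-74194631, minus strand), the lower expressed relative of Cxcr2 on the same chromosome, had 16.5 CPM in Ctrl, 11.6 in TP5, 15.8 in sFD17 and 7.45 in FR17. FR17 was again lowest, 2.22-fold below Ctrl (−1.15, −1.43 to −0.87) and 2.12-fold below sFD17 (−1.08, −1.38 to −0.78). With 171 to 279 counts its interval reaches across the 2-fold line in both comparisons. The ratio of Cxcr1 to Cxcr2 counts lay between 0.0150 and 0.0197, and both receptors were lowest in FR17 and next lowest in TP5.

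Cxcr4 (ENSMUSG00000045382, chr1:128588199-128592293, minus strand) had 666 CPM in Ctrl, 486 in TP5, 689 in sFD17 and 473 in FR17. With TMM scaling Ctrl and sFD17 were the higher libraries and TP5 and FR17 the lower, and no pair of libraries differed 2-fold. This order depended on the scaling: FR17 against sFD17 was −0.54, but −0.08 with library size alone and 0.05 when scaled on neutrophil markers, and sFD17 against Ctrl was 0.05, but −0.17 and −0.34. FR17 and TP5 differed by −0.04 (−0.08 to 0.00), which turned to 0.15 and 0.28. Set against Cxcr2 inside each library, Cxcr4 counts were 0.794 of the Cxcr2 counts in Ctrl (0.775 to 0.814), 0.797 in TP5 (0.774 to 0.820), 0.655 in sFD17 (0.638 to 0.673) and 1.04 in FR17 (1.01 to 1.07). FR17 had the highest ratio, sFD17 the lowest, and Ctrl and TP5 overlapped. Per length, Cxcr4 was above Cxcr2 in all 4 libraries, by 1.10-fold in sFD17 to 1.75-fold in FR17.

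**Figure D3:**
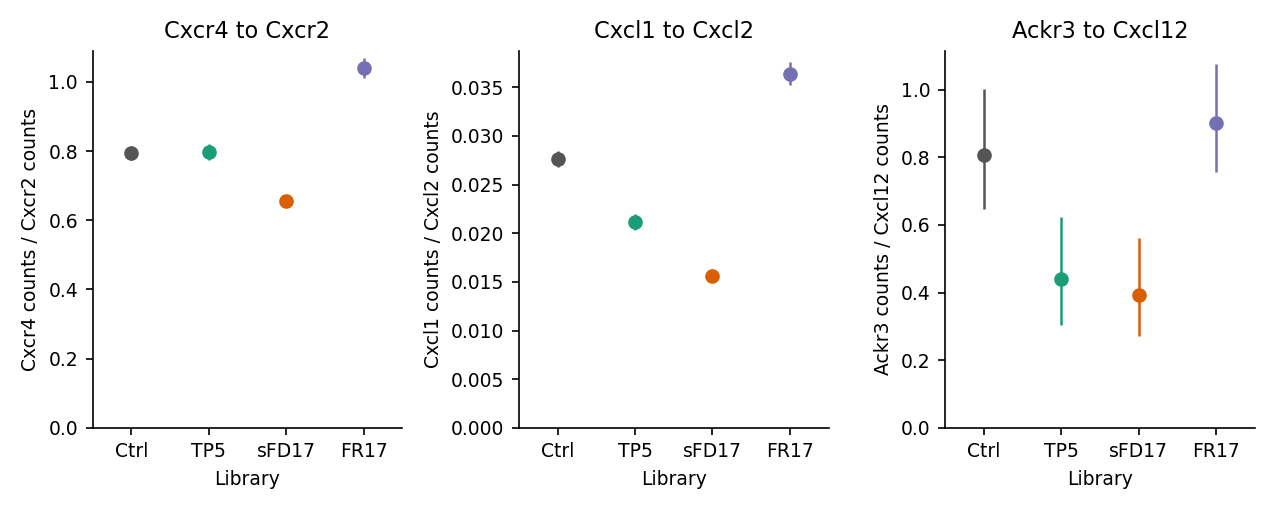
Ratios of counts inside each library, with bars for the 95% interval of the pair of counts. Cxcr4 to Cxcr2 and Cxcl1 to Cxcl2 are highest in FR17 (1.04 and 0.0364) and lowest in sFD17 (0.655 and 0.0156), and Ackr3 to Cxcl12 forms a higher pair (Ctrl, FR17) and a lower pair (TP5, sFD17).

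Cxcl12 (ENSMUSG00000061353, chr6:117168535-117181367, plus strand), the CXCR4 ligand, had 11.2 CPM in Ctrl, 6.10 in TP5, 8.49 in sFD17 and 11.9 in FR17. FR17 and Ctrl differed by 0.09 (−0.19 to 0.36). TP5 was lowest, 1.84-fold below Ctrl (−0.88, −1.24 to −0.53), and FR17 was 1.96-fold above TP5 (0.97, 0.64 to 1.30), both short of the call. FR17 against TP5 was past it with library size alone (1.16) and when scaled on neutrophil markers (1.29).

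Ackr3 (ENSMUSG00000044337, chr1:90203980-90216751, plus strand), the scavenger of CXCL12, had 153 counts in Ctrl, 47 in TP5, 44 in sFD17 and 247 in FR17, or 9.06, 2.68, 3.33 and 10.8 CPM. The values formed 2 levels, with Ctrl and FR17 at the upper and TP5 and sFD17 at the lower. TP5 stood 3.38-fold below Ctrl (−1.76, −2.26 to −1.28) and sFD17 2.72-fold below it (−1.44, −1.96 to −0.95). FR17 was 0.25 above Ctrl on the log2 scale (−0.05 to 0.55), 4.02-fold above TP5 (2.01, 1.55 to 2.49) and 3.23-fold above sFD17 (1.69, 1.22 to 2.19). The ratio of Ackr3 to Cxcl12 counts was 0.805 in Ctrl, 0.439 in TP5, 0.393 in sFD17 and 0.901 in FR17. Intervals of the upper pair (0.647 to 1.07) and the lower pair (0.271 to 0.625) did not overlap.

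**Figure D4:**
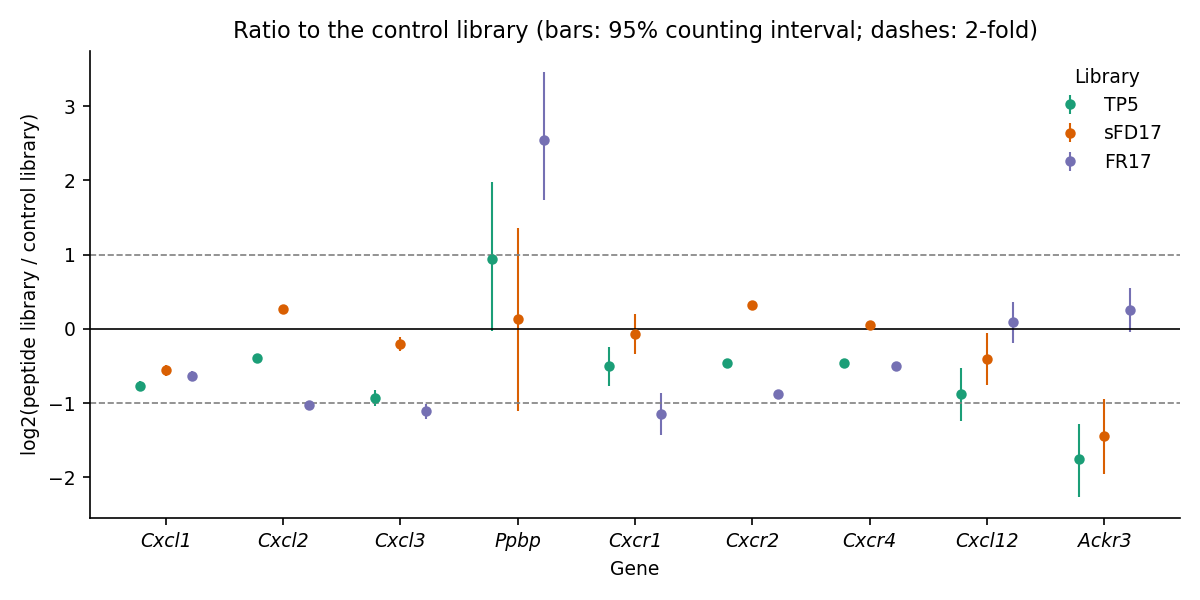
Log2 ratio of each peptide library to the control library for the 9 genes that passed the filter on low counts, with bars for the 95% counting interval and dashes at 2-fold. The 3 comparisons share the control library. In FR17, Cxcl2, Cxcl3 and Cxcr1 lie below the lower dashes and Ppbp above the upper; in TP5 and sFD17, Ackr3 alone lies past them.

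Counted over the axis, TP5 against Ctrl gave 0 of 9 genes higher and 1 lower (Ackr3), where 4.07% and 6.15% of all 16369 genes were past 2-fold in these directions. The median log2 ratio of the 9 genes was −0.51 and 8 of them were lower, against a median of 0.00 and 49.8% lower over all genes. sFD17 against Ctrl also gave 0 higher and 1 lower (Ackr3), beside 6.24% and 7.24% of all genes, with a median of −0.07 against −0.03 over all genes. FR17 against Ctrl gave 1 higher (Ppbp) and 3 lower (Cxcl2, Cxcl3 and Cxcr1), beside 5.07% and 4.55% of all genes, and its median was −0.63 with 6 of 9 lower, against a median of 0.03 and 47.7% lower over all genes. By edgeR's exact test of a pair of libraries at an unadjusted p under 0.05, which compares libraries and not conditions, Ackr3 was called in TP5 and in sFD17 and Cxcl3, Ppbp and Cxcr1 in FR17. The same test called 1.89%, 4.67% and 1.77% of all genes. Cxcl2 at 2.04-fold was not called by it.

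The calls for Cxcl2, Cxcl3 and Cxcr1 in FR17 depended on the scaling. With library size alone the median of all genes moved to 0.27 in FR17, −0.24 in sFD17 and 0.05 in TP5. The log2 ratios to Ctrl in FR17 then became −0.79 for Cxcl2, −0.86 for Cxcl3 and −0.90 for Cxcr1, still lower but inside 2-fold. Relative to sFD17 they were −0.84, −0.44 and −0.62, and Cxcr2 was −0.75. The calls of Ppbp in FR17 and of Ackr3 in TP5 and sFD17 remained under this scaling.

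Among the peptides, 3 pairs were compared at the same dose and day. FR17 and sFD17 differ in the order of the TP5 residues. Between them 2 genes were higher in FR17 (Ppbp, Ackr3) and 3 lower (Cxcl2, Cxcr1, Cxcr2), beside 12.5% and 11.5% of all genes, and the exact test called 4 (Cxcl2, Ppbp, Cxcr2 and Ackr3) beside 12.1%. This pair of libraries was the most different over all genes. Cxcl1 differed by −0.08 (−0.15 to 0.00) and turned to 0.39 with library size alone, so no direction is given for it.

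FR17 and free TP5 differ in the assembling part that FR17 carries. Higher in FR17 were 2 genes (Ppbp, Ackr3) and lower 0, beside 8.24% and 3.97% of all genes, and the exact test called the same 2 beside 3.46%. Cxcl2 was 1.56-fold lower in FR17 than in TP5 (−0.65, −0.66 to −0.63) and Cxcr4 stood within its interval of no difference. sFD17 and TP5 differ both in the assembling part and in the order of the TP5 residues, and gave 0 higher and 0 lower, beside 7.78% and 6.48%, and the exact test called 0 of the 9 beside 4.42%. Their largest ratio was that of Ppbp (−0.81, −1.92 to 0.21), on 12 and 28 counts, and Cxcr2 was 1.72-fold higher in sFD17 (0.79, 0.75 to 0.82). A value inside 2-fold in 1 library each does not show that the peptides act alike.

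Markers of other cells differed between the libraries as well. The 9 platelet markers other than Ppbp summed to 122 CPM in Ctrl, 55.9 in TP5, 41.7 in sFD17 and 151 in FR17, most of it Pf4, and Gp1bb was at 0 in all 4. Without Pf4 the other 8 summed to 19.7, 18.6, 23.0 and 21.9 CPM, so the low sums in TP5 and sFD17 were those of Pf4. Itga2b, the platelet integrin, had log2 ratios to Ctrl of 0.05, 0.24 and 0.52 in TP5, sFD17 and FR17. Gp1ba, a subunit of the platelet von Willebrand factor receptor, stood at −0.03, 0.41 and −0.56, and Clec1b, a platelet activating receptor, at −0.31, −0.52 and −0.31. The markers thus had no common order, and FR17 was the highest library for Itga2b and the lowest for Gp1ba. The other 4 detected markers besides Pf4 had at most 35 counts in any library. Among them Gp6, the platelet collagen receptor, had 31 counts in sFD17 against 3 in Ctrl, 2 in TP5 and 9 in FR17. Of the 9 platelet genes that passed the filter, Ppbp included, 3 were at least 2-fold higher in FR17, beside 5.07% of all genes. Gp1ba and Clec1b were the only 2 of them below Ctrl there. Of the 9 markers other than Ppbp, 4 were above Ctrl in TP5 and 6 each in sFD17 and FR17. The part of platelets in the Ppbp value was not tested. The 14 macrophage markers summed to 10909 CPM in Ctrl, 8447 in TP5, 4680 in sFD17 and 13349 in FR17, with their highest values in the libraries where Ackr3 was high.

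The 9 endothelial markers summed to 164, 127, 180 and 217 CPM in Ctrl, TP5, sFD17 and FR17, and the 10 markers of fibroblasts and smooth muscle to 323, 203, 299 and 334 CPM. None of these 19 genes was at 0. Both sums were lowest in TP5 and highest in FR17, as Cxcl12 was. The intervals of Ctrl (315 to 332 CPM) and FR17 (327 to 342 CPM) overlapped for the fibroblast and smooth muscle sum, and Cxcl12 did not separate these libraries either. The part of these cells in the Cxcl12 and Ackr3 values was not tested. The 15 neutrophil markers other than Cxcr2 summed to 37999 CPM in Ctrl, 41107 in TP5, 49917 in sFD17 and 32967 in FR17, highest in sFD17 and lowest in FR17 like Cxcr2 and Cxcl2. Their summed log2 ratio of FR17 to Ctrl was −0.20, against −0.88 for Cxcr2 and −1.03 for Cxcl2. Single markers ran from −1.04 for Csf3r, −0.72 for Il1r2, −0.69 for Trem1 and −0.64 for Stfa2l1 to 0.31 for Ngp, 0.44 for Ltf and 0.53 for Camp, so Cxcr2 lay within the range of the list. When the libraries were scaled to this sum, an alternative chosen after seeing the data, FR17 to Ctrl was −0.68 for Cxcr2 and −0.83 for Cxcl2, while sFD17 to Ctrl turned to −0.07 and −0.13.

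The remaining marker lists differed as follows. The 11 markers of NK and T cells summed to 64.1 CPM in Ctrl, 45.5 in TP5, 41.4 in sFD17 and 146 in FR17, where all 11 were above Ctrl. The 8 B cell markers summed to 367 to 525 CPM, and the 10 markers of alveolar and airway epithelium to 673 CPM in Ctrl, 988 in TP5, 1344 in sFD17 and 798 in FR17. Epithelial markers were thus read in every library in which Cxcl5 was at the floor. Most of each epithelial sum came from 1 gene, Scgb1a1, at 565 CPM (Ctrl), 875 (TP5), 1222 (sFD17) and 673 (FR17). The order of these sums was therefore that of Scgb1a1. Counted by gene, FR17 had the most epithelial markers above Ctrl, 9 of 10, against 7 for TP5 and 6 for sFD17.

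**Figure D5:**
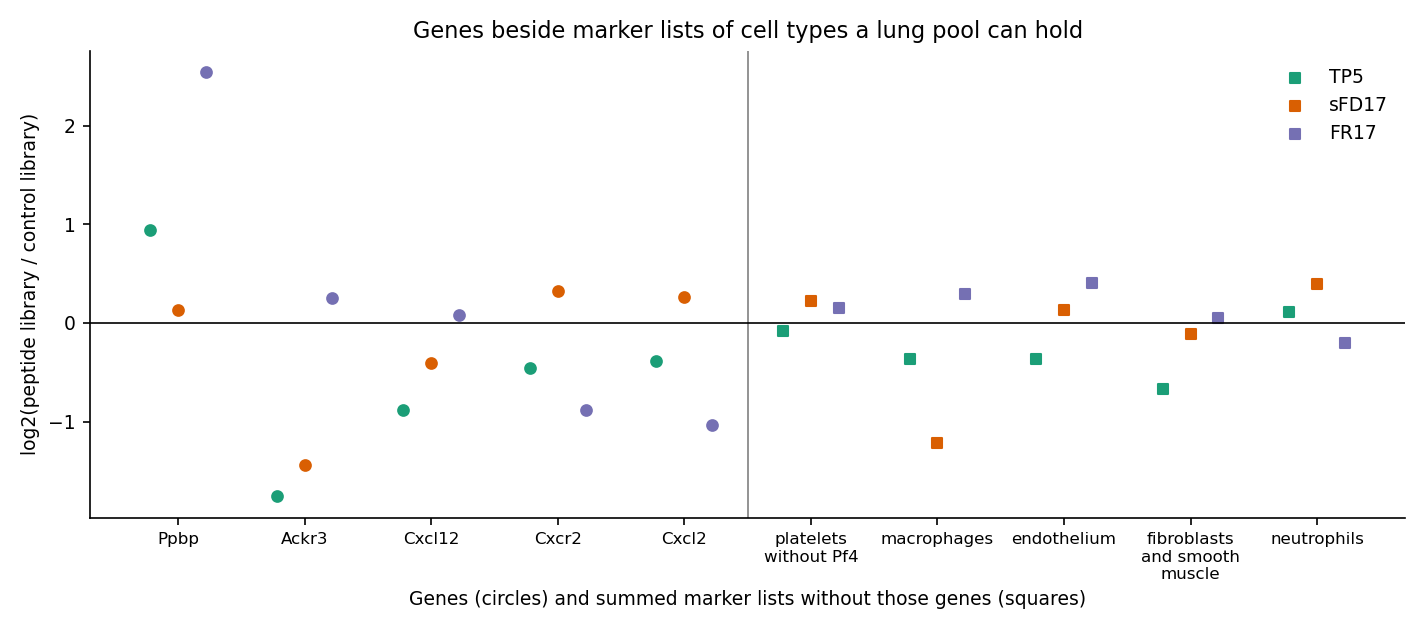
Log2 ratio of each peptide library to the control library for 5 genes of the axis (circles) and for the summed CPM of 5 lists of cell type markers without those genes (squares). Macrophage markers are lowest in sFD17 (−1.22), platelet markers without Pf4 lie between −0.08 and 0.22, and the summed neutrophil markers are lowest in FR17 (−0.20), where single ones reach −1.04.

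Of the other ligands and scavengers of the pathway, 7 of 9 genes passed the filter. In TP5 1 was lower at 2-fold (Pf4), in sFD17 2 were (Pf4 and, just past the line, Cxcl14), in FR17 0, and none was higher. Over all genes 6.15%, 7.24% and 4.55% were lower. Cxcl14, a chemokine of epithelium and fibroblasts, had 64 counts in Ctrl, 36 in TP5, 25 in sFD17 and 124 in FR17. Its order of libraries was the same as that of Pf4.

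The 24 genes that carry the signal from these receptors, G protein subunits, PI3-kinases, Rac regulators and Src kinases, gave 0 genes past 2-fold in each peptide library against Ctrl, beside 4.07% to 6.24% of all genes higher and 4.55% to 7.24% lower. In FR17, 22 of 24 were lower, with a median of −0.24, beside 47.7% lower and a median of 0.03 over all genes. With library size alone both medians moved up, to 0.00 for the list and 0.27 for all genes. Fgr, a Src kinase of neutrophils, had log2 ratios to Ctrl of −0.17, 0.57 and −0.66 in TP5, sFD17 and FR17. Plcb2, a phospholipase activated by G proteins, stood at 0.26 in TP5, and Pik3r5, a PI3-kinase regulator, at −0.19 in TP5 and −0.53 in FR17. In FR17 the list ran from −0.66 to 0.22, a smaller distance from Ctrl than that of Cxcr2 or Cxcl2.

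The 14 genes of receptor desensitization and trafficking gave 1 call, in sFD17, where 6.24% of all genes were higher and 7.24% lower. It was Rgs1, which shortens G protein signalling and had 1081 counts in sFD17 against 3663 in Ctrl (−1.40). Rgs1 also had the largest ratio of the list in TP5, with 2515 counts (−0.60). Grk3, a kinase that phosphorylates active receptors, stood at 0.44 in TP5 and 0.68 in sFD17. The largest ratios in FR17 were −0.48 for Rgs14 and −0.39 for the receptor kinase Grk6. The median of the list stood at 0.04 (TP5), 0.14 (sFD17) and −0.18 (FR17), beside 0.00, −0.03 and 0.03 over all genes. With library size alone it was 0.09, −0.08 and 0.07, beside 0.05, −0.24 and 0.27 over all genes. The sign in sFD17 and FR17 thus depended on the scaling.

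The 20 inducers and regulators of these chemokine messages, among them interleukin-1, TNF and the NF-κB genes, gave 0 calls in TP5, beside 4.07% of all genes higher and 6.15% lower. They gave 4 higher and 2 lower in sFD17 (6.24% and 7.24% over all genes), and 1 higher and 1 lower in FR17 (5.07% and 4.55%). The 4 higher in sFD17 were Csf3, Nfkbie, Nfkb2 and Tnf, of which Csf3 alone stayed past 2-fold with library size alone (0.99, 0.90 and 0.87 for the other 3). Csf3, which encodes the granulocyte growth factor G-CSF, had 326 counts in Ctrl, 412 in TP5, 706 in sFD17 and 221 in FR17, with log2 ratios to Ctrl of 0.28 in TP5 and 1.47 in sFD17, and its FR17 value was just past the lower 2-fold line, inside it with library size alone (−0.76). Il6 was lower in sFD17 (−1.21), and Nfkbiz, an NF-κB cofactor, stood at −0.75 in FR17. Among genes with at least 50 counts, the largest ratios in TP5 were −0.44 for Il1a and −0.40 for Socs3, an inhibitor of cytokine signalling. The list had medians of −0.19 (TP5), 0.50 (sFD17) and −0.44 (FR17), in the same directions with library size alone (−0.13, 0.28 and −0.19). FR17 against sFD17 gave 1 higher and 9 lower of 20, beside 12.5% and 11.5% of all genes, and 2 higher and 3 lower with library size alone. Il17a, which encodes an inducer of these chemokines made by T cells, is the other lower call in sFD17 and the higher call in FR17, on 16 counts in Ctrl, 10 in TP5, 2 in sFD17 and 48 in FR17.

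Neutrophil retention and ageing, a list of 16 genes, gave 2 lower in TP5 (Vcam1, Nr1d1), 1 higher and 2 lower in sFD17 (Icam1 higher; Vcam1, Nr1d1 lower) and 1 lower in FR17 (Csf3r). Over all genes the shares were 6.15% lower in TP5, 6.24% higher and 7.24% lower in sFD17, and 4.55% lower in FR17. With library size alone the calls of Nr1d1 in TP5 (−0.96) and Csf3r in FR17 (−0.79) were lost. Vcam1, the adhesion molecule that holds cells through integrin α4, had 1054 counts in Ctrl, 525 in TP5, 223 in sFD17 and 1486 in FR17. Its high libraries were again Ctrl and FR17, as for Ackr3. Csf3r, the G-CSF receptor, stood at −0.47, 0.26 and −1.04 relative to Ctrl, and Itga4, which encodes integrin α4, at −0.80 in FR17. Icam1, which encodes a ligand of the neutrophil integrins, had 4657 counts in Ctrl and 10967 in sFD17 (1.59).

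The genes whose pattern over the 4 libraries was most like that of a member were sought among 8108 genes with at least 100 counts in every library, by the root mean square difference of centred log2 CPM. For Cxcl2 these were Lypd6b, Tlr6, Chst11, Gcnt2 and Gm9791, with differences of 0.0122 to 0.0325, and 71 genes lay within 0.1. For Cxcr2 they were Rnf125, Epha1, Mirt1, Card19 and Dedd2 (0.0190 to 0.0402), with 121 genes within 0.1. For Cxcr4 they were Gnl3l, Ptger2, Fam122a, Fth1 and Magi3 (0.0327 to 0.0398), with 170 within 0.1. With 4 libraries many genes come close, and the likeness is a description only.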

How the data were processed

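The mRNA of 4 libraries, Ctrl, TP5, sFD17 and FR17, was analysed. According to the study's methods, TRIzol was used for the RNA and a strand-keeping NEBNext Ultra kit for the libraries. What the authors deposited are raw counts of reads on each gene, not normalized, with gene coordinates and lengths. The submitters' processing notes list HISAT2 2.0.5, StringTie 1.3.3b, featureCounts 1.5.0-p3, edgeR 3.18.1 and GRCm38.p6 without their roles. Whether counting used the strand, and how reads with several matches were treated, is not given in the sources used here. GENCODE M21 holds 54409 of the identifiers, 53499 of them (98.3%) at identical coordinates. No gene annotated there overlaps any of the 10 genes.

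Groups and columns were matched by the labels, and 0 columns were left unmapped. A gene was kept with 10 counts or more in any library. TMM factors (0.986 for Ctrl, 1.02 for TP5, 0.849 for sFD17, 1.17 for FR17) were computed with edgeR 4.0.16 in R 4.3.3. Ratios are of scaled CPM without a pseudocount and carry the 95% exact binomial (Clopper-Pearson) interval of the pair of counts. CPM carry the exact Poisson interval. Reads have no molecular identifiers. A call is a ratio of at least 2-fold. No test between conditions was possible with 1 library per group. The exact test used the trended dispersion over the 4 libraries taken as 1 group, which holds the differences between treatments. Procedures were tested on simulated data, with known folds set in genes of higher counts and libraries that differed in depth. The simulation covers neither sparse genes nor the choice between scalings. Promoters, start sites and 50-base windows were read with Python 3.11.15 from RefSeq and GENCODE.

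The 10 genes, the 5 lists of other pathway genes and the marker lists were chosen with earlier results of these data known, and support nothing by their direction. Named genes were the 10 genes, the sorting markers, the 2 genes of each pathway list with the largest ratio in each peptide library given 50 counts or more in either library, and the 5 nearest patterns of Cxcl2, Cxcr2 and Cxcr4. A gene that this rule selects is not reported here. Nfkbie, Nfkb2, Tnf, Il17a, Cxcl15, Il1r2, Trem1, Stfa2l1, Ngp, Ltf, Camp, Itga2b, Gp1ba, Clec1b, Gp6, Gp1bb and Scgb1a1, the repeated mentions of genes in other libraries and the NF-κB pattern were chosen after values were seen. Alternatives were DESeq2 1.42.0 size factors, library size alone, no filter, 10 counts in every library, a prior count of 2, a 1.5-fold call, the exact test, and an interval wholly past 2-fold. Scaling on neutrophil markers was added after seeing the data, as were the platelet sum without Pf4 and the counts of list calls with library size alone.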

Additional observations from a re-analysis of the deposited data

How the results depend on the processing

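The number of axis genes past 2-fold was within 1.5 times of the reported one in 42 of 54 recomputed counts, and 12 differed more. With library size alone it was 1 in place of 4 for FR17 against Ctrl, 2 in place of 5 for FR17 against sFD17 and 1 in place of 0 for sFD17 against TP5. Scaled on neutrophil markers, it was 2 in place of 1 for TP5 against Ctrl, 1 for FR17 against Ctrl, 3 for FR17 against sFD17 and 1 for sFD17 against TP5. At 1.5-fold it was 5 for TP5 against Ctrl, 5 in place of 2 for FR17 against TP5 and 4 for sFD17 against TP5, since a lower threshold admits more genes. With the whole counting interval past 2-fold it was 0 in place of 1 for sFD17 against Ctrl (without Ackr3) and 1 for FR17 against TP5 (without Ppbp). No log2 ratio of a called gene turned its sign under the 4 other scalings or prior counts. Of 54 ratios, 6 turned with library size alone, 9 with neutrophil markers and 0 with DESeq2 size factors or the prior count, none of them called. Leaving out a replicate was not possible. No paired analysis was possible because each group has 1 library and the labels carry no replicate numbers. Depth limits Cxcl5, Ppbp, Ackr3, Cxcl12 and Cxcr1, and the lack of replicates limits every value.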
